A study of Mus musculus with 49 samples.

Results

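CD8+ T cells from *Stat5a* Y694F knock-in (KI) mice were compared with WT CD8+ T cells after 24 hr in IL-2. The members were the 6 RNA-seq libraries of the treatment groups STAT5A.24h.KI and STAT5A.24h.WT, 3 libraries a side, of 49 samples in the series. In the KI allele the codon of the tyrosine that JAKs phosphorylate (Y694) is a phenylalanine codon. The allele was made with CRISPR-Cas9 in zygotes of B6D2F1 mice, and the line was then crossed to C57BL/6J for 6 generations. KI mice were homozygous and the WT mice were littermates, with an age range of 8 to 24 weeks for both. The allele is in the germ line, so every cell of the KI mice carried it throughout development. In both groups CD8+ T cells were enriched from spleen by negative selection, given recombinant human IL-2 at 500 IU/ml, and lysed for RNA after 24 hr in culture. The other libraries of the series covered 0, 4 and 48 hr of the same line and all times of a *Stat5b* Y699F line with its own WT littermates. Whether a library came from 1 mouse or from pooled mice was not given in the sources used here. The p-values therefore measured only the spread between libraries of the same group, which may be technical. That spread was estimated in 1 fit over 47 libraries of both lines and all times, not from these 6 alone.

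The WT libraries held 37167100, 39115265 and 45405268 reads in the longest transcript of each gene, and the KI libraries held 40796084, 41611335 and 38214281. Levels are given in RPKM, read numbers scaled to the length of the transcript and to the mapped reads of the library. Defining genes of CD8+ T cells were abundant in all 6 libraries. *Cd8a* lay between 258 and 296 RPKM, *Cd8b1* between 393 and 550 RPKM and *Cd3e* between 176 and 245 RPKM. *Xist* lay between 44.0 and 69.9 RPKM and the Y-linked *Kdm5d* had no read in any of the 6 libraries. Several libraries stood apart. Replicate 3 of WT had the lowest summed level of B cell markers, 291 RPKM against 531 and 541 RPKM in the other WT libraries. Replicate 1 of KI had the highest summed level of macrophage and monocyte markers, 507 RPKM against 327 and 310.2 RPKM in the other KI libraries. The gene *Baiap2l1*, singled out after its values were seen, was at 15.4 and 10.2 RPKM in replicates 2 and 3 of KI but at 0.0174 RPKM in replicate 1, and at no more than 0.0234 RPKM in WT. The same 2 KI replicate numbers were high at 0 hr, with 9.04 and 7.49 RPKM, and at 48 hr, with 12.9 and 8.67 RPKM.

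IL-2 is a growth factor of activated T cells. Its receptor consists of an α chain (IL-2Rα, encoded by *Il2ra*), a β chain (*Il2rb*) and the common γ chain (*Il2rg*). The kinases JAK1 and JAK3, bound to the β and γ chains, phosphorylate STAT5A and STAT5B, close paralogs that share 1 such tyrosine each near the C terminus. Phosphorylated STAT5 forms dimers that enter the nucleus and bind GAS motifs, and genes regulated by STAT5 encode feedback inhibitors, receptor chains, cytokines and regulators of growth and survival.

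The sequences below show what distinguished the KI allele from the reference. The window lies on chr11:100881731-100881763 of the plus strand of mm10 (GRCm38), the build of the deposited tables, and runs 5′ to 3′. Its first bases are intronic and the rest belongs to coding exon 16 of 18 of *Stat5a* (chr11:100881738-100881789). The guide lies on chr11:100881731-100881753 and has its PAM in capitals. The reference has the tyrosine codon, chr11:100881755-100881757, in capitals. The repair oligonucleotide has the 4 bases that differ from the reference in capitals, and counted from 1 at the 5′ end of the guide they are A12G, A15C, T18C and A26T. The last of these changes the codon.
Guide: ccggcagcgaaagcagttgaCGG
Reference: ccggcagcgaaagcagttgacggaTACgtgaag
Repair oligonucleotide: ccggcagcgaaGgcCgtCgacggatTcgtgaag

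The deposited tables hold counts per transcript and not reads, so the substitution itself was not read out. *Stat5a* mRNA was at 21.7, 19.4 and 23.2 RPKM in the WT libraries and 20.6, 19.6 and 19.01 RPKM in the KI libraries. The groups overlapped, and the log2 fold change was -0.18 ± 0.076 (SE) with an adjusted p of 0.0862. This value lay near the threshold. It passed without replicate 2 of WT (-0.25, adjusted p = 0.0384) and also with DESeq2 (adjusted p = 0.0233), with DESeq2 size factors (0.0387), with only genes of at least 1 RPKM in 3 libraries (0.0254), with the transcript of highest count (0.0347), without the 4 hr libraries (0.00834) and without replicate 1 of KI at every time (0.0434). Its log2 fold change stayed between -0.25 and -0.19 in these settings. *Stat5b*, which encodes the paralog, was at 26.9, 23.6 and 27.1 RPKM in WT and at 32.0, 33.0 and 32.0 RPKM in KI. All KI libraries lay above all WT libraries, but the log2 fold change of 0.26 ± 0.11 had an adjusted p of 0.112. It passed with only the 6 libraries compared (adjusted p = 0.0143) and without the 4 hr libraries of the line (adjusted p = 0.000635).

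A gene was said to have passed the test at an adjusted p of at most 0.05 in edgeR's quasi-likelihood test, and was called when it also differed at least 2-fold. Of 15566 genes tested, 193 (1.24%) were called lower and 499 (3.21%) were called higher in KI. Many more passed with smaller differences, 1402 (9.01%) lower and 1477 (9.49%) higher. These numbers depended on the 4 hr libraries in the fit. Replicate 3 of KI at 4 hr, a library of 1028515 reads, was left out. With all 48 libraries 557 genes passed lower and 492 higher of 15404 tested. Without any 4 hr library of the *Stat5a* line 2605 passed lower and 2034 higher of 15085. Replicate 2 of WT at 4 hr, with 17369112 reads, was kept but also stood apart. Its *Cd8a* level was 81.0 RPKM, against 185 and 198 RPKM in the other WT libraries at 4 hr. The log2 fold change had a median of 0.011 over all genes tested, -1.34 over genes called lower and 1.56 over genes called higher. The called groups differed in their levels: 56 of the 193 lower genes stayed under a mean of 1 RPKM in both groups, against 325 of the 499 higher genes. Without replicate 1 of KI 247 genes were called lower and 270 higher, and without replicate 3 of WT 178 were called lower and 300 higher.

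The next comparison asked how the KI difference related to the change that WT cells made over 24 hr in IL-2. Genes were sorted by the change from 0 to 24 hr in WT cells of the *Stat5b* line, libraries that the *Stat5a* comparison did not use. This sets cells cultured in IL-2 against freshly isolated cells, with no culture without IL-2 in the comparison, so the effects of IL-2 and of culture cannot be told apart. In these WT cells 1412 genes (9.07% of those tested) were called higher at 24 hr than at 0 hr and 2096 (13.5%) lower. Of the 1412 genes that rose, 9.14% were called lower in *Stat5a* KI and 0.212% (3 genes) higher, and 628 (44.5%) passed in the lower direction. Of the 2096 genes that fell, 398 were called higher and 10 (0.477%) lower, and 619 (29.5%) passed in the higher direction. Genes called in neither direction were called lower in 0.448% and higher in 0.813% of 12058. The median log2 fold change of KI against WT was -0.388 for genes that rose over time and 0.572 for genes that fell. Before IL-2, at 0 hr, the medians of the same genes were -0.002 and 0.364. The genes that fell included markers of other cell types, with 21 of 23 B cell markers, 23 of 29 macrophage and monocyte markers, 10 of 12 dendritic cell markers and 14 of 19 erythroid and platelet markers. Of these lists 20, 18, 3 and 1 genes were called higher in *Stat5a* KI, against 3.21% of all genes. The count for erythroid and platelet markers, 1 of 19, was near that share. The part of other cell types in the relation was not tested.

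**Figure D1:**
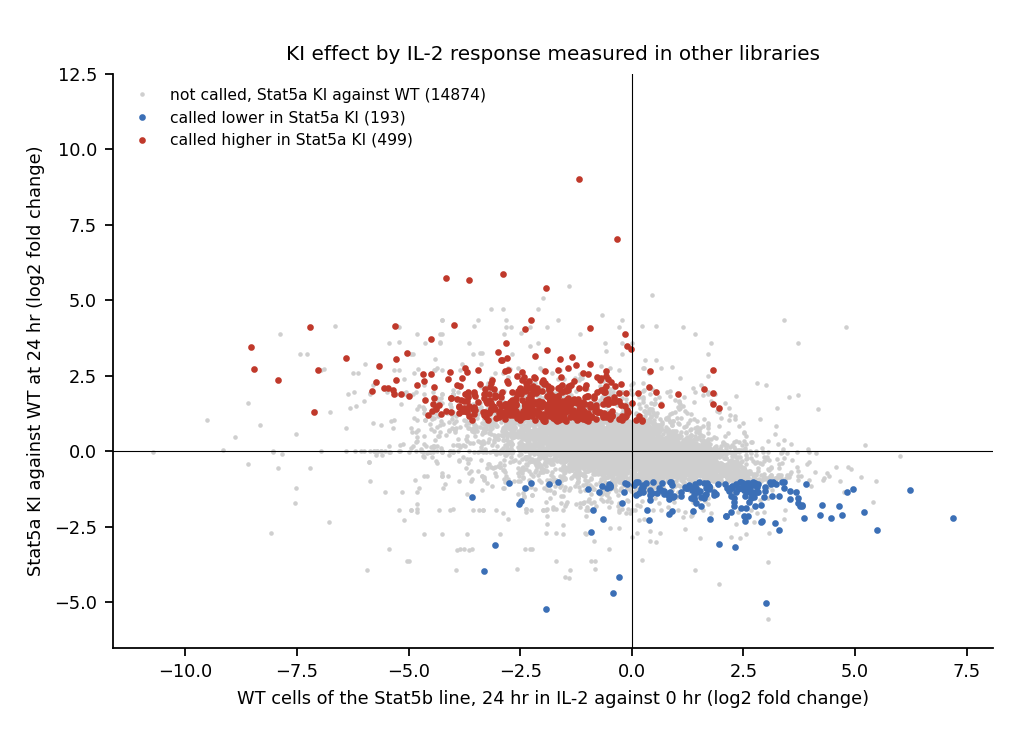
Each point is 1 of 15566 genes. The x axis is the log2 fold change from 0 to 24 hr of IL-2 in WT cells of the *Stat5b* line, and the y axis is the log2 fold change of *Stat5a* KI against WT at 24 hr. Blue points (193 genes called lower in KI) lie mostly at the right, among genes that rose over 24 hr, and red points (499 called higher) mostly at the left.

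Among the 19 genes of the IL-2 receptor, JAK and STAT list, 6 passed lower and 2 passed higher in KI, against 9.01% and 9.49% of all genes, so the share in the higher direction was near that of all genes. In the fit with all 48 libraries 2 passed lower and 1 higher. *Il2ra*, which encodes the α chain that gives the receptor its high affinity, was at 14.5, 23.5 and 20.0 RPKM in WT and at 8.41, 6.38 and 7.01 RPKM in KI. The groups did not overlap, and *Il2ra* fell by 1.48 ± 0.36 on the log2 scale (adjusted p = 0.00304). *Il2rb*, the β chain that signals, was at 173, 193 and 201 RPKM in WT and 137.1, 134.4 and 126.1 RPKM in KI. Every KI library was below every WT library, but the fall was smaller, 0.58 ± 0.16 on the log2 scale (log2 fold change -0.58, adjusted p = 0.00755). With all 48 libraries neither gene passed (adjusted p = 0.406 for *Il2ra*, at a log2 fold change of -1.51, and 0.243 for *Il2rb*). *Il2rb* also did not pass with limma on log2(RPKM + 1), at 0.153. *Il2rg*, the common γ chain and the most abundant member, was at 312, 299 and 336 RPKM in WT and 306, 295 and 293 RPKM in KI, with overlapping groups and a log2 fold change of -0.15 (adjusted p = 0.228, but 0.0208 without the 4 hr libraries). The called gene in the other direction was *Il9r*, which encodes the receptor of another cytokine that signals through the γ chain. *Il9r* was low throughout, at 0.197, 0.154 and 0.114 RPKM in WT and 1.02, 0.786 and 0.701 RPKM in KI, a log2 fold change of 2.38 ± 0.30 (adjusted p = 1.04e-06). Already at 0 hr 1 gene of the list was called higher in KI, against 0.861% of all genes, and the highest log2 fold change was 1.51. In the test from 0 to 24 hr, 0 genes of the list were called with a more positive KI effect.

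Of 22 STAT5 feedback and known target genes, 4 were called lower and 0 higher, against 1.24% and 3.21% of all genes, and 8 passed lower and 2 higher, against 9.01% and 9.49%. Those that passed numbered 5 lower and 0 higher with all 48 libraries. Their log2 fold changes ran from -2.62 to 1.36 around a median of -0.27. *Cish*, which encodes an inhibitor of cytokine signaling induced by STAT5, was at 26.8, 27.1 and 32.5 RPKM in WT and 17.3, 15.3 and 14.9 RPKM in KI. The KI values were all below the WT values and *Cish* fell by 0.93 ± 0.21 on the log2 scale (adjusted p = 0.0017). *Socs2*, another inhibitor of this family, had a log2 fold change of -0.68 (adjusted p = 0.0192). It did not pass without replicate 2 or 3 of KI or replicate 2 or 3 of WT, where its adjusted p lay between 0.0616 and 0.15, nor with all 48 libraries (0.0653). *Il12rb2*, the signaling chain of the IL-12 receptor, was at 6.21, 12.7 and 9.06 RPKM in WT and 3.25, 2.33 and 2.84 RPKM in KI. WT libraries were all higher than KI libraries, and the log2 fold change was -1.80 ± 0.22 (adjusted p = 6.88e-07). The promoter windows available for 18 of the 22 genes held a GAS motif (TTCNNNGAA, either strand, 250 bases before to 50 after the start) in 22.2%, against 8.51% of the 11287 genes tested that had a window. That share is 4 genes. All genes that passed lower held the motif in 8.83%, and some other lists had similar or higher shares. It lay in 38.5% of 13 other cytokine receptor genes and 21.7% of 23 effector and memory transcription factor genes with a window.

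Cytokine genes held several of the largest falls in KI cells. Of 25 cytokine genes listed 22 were tested, of which 9 were called lower and 0 higher, against 1.24% and 3.21% of all genes. A further gene passed lower and 1 passed higher, and the median log2 fold change was -0.91, against 0.011 over all genes. *Ifng*, which encodes IFN-γ, the macrophage-activating cytokine of CD8+ T cells, was at 12.2, 19.5 and 48.0 RPKM in WT and at 4.88, 2.56 and 2.53 RPKM in KI. The WT libraries varied widely among themselves but all lay above KI, and *Ifng* fell by 3.07 ± 0.36 on the log2 scale (adjusted p = 2.94e-07). Without replicate 3 of WT the log2 fold change was -2.35. *Lta*, which encodes lymphotoxin α, was far less variable, with 41.0, 52.0 and 59.4 RPKM in WT and 12.3, 12.02 and 12.8 RPKM in KI. It had the smallest adjusted p of all genes, 2.01e-15, at a log2 fold change of -2.10 ± 0.12. With only the 6 libraries compared its adjusted p was 0.000187.

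*Lif*, which encodes a cytokine of the IL-6 family, was at 3.12, 7.72 and 7.33 RPKM in WT and at 1.52, 0.848 and 0.727 RPKM in KI. The groups were separate and the log2 fold change was -2.62 ± 0.33 (adjusted p = 1.08e-06). *Ccl3*, which encodes a chemokine that attracts monocytes and T cells, was at 19.6, 28.8 and 55.3 RPKM in WT and 10.3, 7.70 and 6.76 RPKM in KI. Replicate 3 of WT was again the highest library, and the log2 fold change was -2.13 ± 0.31 (adjusted p = 1.29e-05). *Csf2*, which encodes GM-CSF, was lower at a log2 fold change of -1.78 (adjusted p = 0.00197). *Tnf*, which encodes an inflammatory cytokine, was at 25.0, 26.4 and 28.4 RPKM in WT and 14.4, 13.8 and 12.04 RPKM in KI. These groups were also separate, at a log2 fold change of -1.05 ± 0.17 (adjusted p = 4.04e-05), which came to -0.98 without replicate 3 of KI. In the other direction *Il16* rose by 0.35 on the log2 scale (adjusted p = 0.0018), which did not pass with all 48 libraries (0.49) or with limma (0.0536). *Ltb*, the partner of lymphotoxin α in a membrane heterotrimer and the most abundant cytokine gene, was at 341, 332 and 396 RPKM in WT and 340, 362 and 338 RPKM in KI, with overlapping groups.

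Of 17 granzyme and granule genes listed 15 were tested, of which 2 were called lower, 4 passed lower and 0 passed higher, against 1.24%, 9.01% and 9.49% of all genes. Their median log2 fold change was -0.36, with a range from -2.12 to 0.51. *Gzmb*, which encodes granzyme B, a protease that triggers apoptosis of target cells, was at 109.02, 196 and 218 RPKM in WT and 45.1, 37.2 and 43.8 RPKM in KI. Every WT library exceeded every KI library more than 2-fold, and the log2 fold change was -2.12 ± 0.31 (adjusted p = 1.17e-05). *Nkg7*, the most abundant of the list, which encodes a granule membrane protein, was at 254, 245 and 262 RPKM in WT and 281, 270 and 257 RPKM in KI, with a log2 fold change of 0.02 (adjusted p = 0.962).

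**Figure D2:**
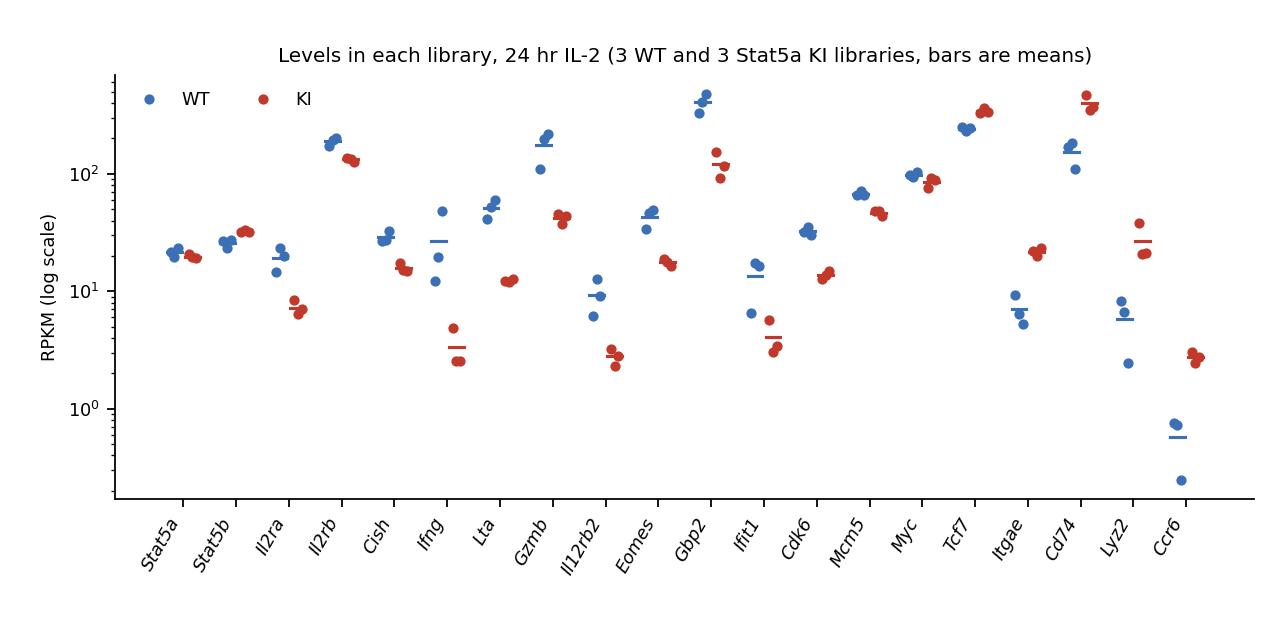
Each point is the level of a gene in 1 library at 24 hr, in RPKM on a log axis, with 3 WT libraries in blue and 3 *Stat5a* KI libraries in red. Short bars are group means. WT and KI points of *Lta*, *Gzmb*, *Il12rb2*, *Eomes*, *Gbp2* and *Cdk6* are apart, those of *Stat5a* overlap, and *Itgae*, *Cd74*, *Lyz2* and *Ccr6* are higher in KI.

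Interferon-stimulated genes were the list with the most genes called lower in KI. Such genes encode antiviral effectors and GTPases and are turned on through GAS motifs after IFN-γ or, after type I interferon, through the interferon-stimulated response element (ISRE). Of 40 members, all tested, 20 were called lower and 33 passed lower, and 0 passed higher, against 1.24% called lower and 9.01% passed lower of all genes. The median log2 fold change of the list was -0.98. The count of calls ranged from 14 to 23 when 1 of the 6 libraries was left out. The summed level of the list was 2443, 2808 and 3045 RPKM in WT and 1715, 1205 and 1409 RPKM in KI, so the groups did not overlap.

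*Gbp2*, which encodes an interferon-induced guanylate-binding protein, was at 332, 408 and 476 RPKM in WT and at 154, 91.7 and 115.7 RPKM in KI. Even the highest KI library was below the lowest WT library, and the log2 fold change was -1.82 ± 0.32 (adjusted p = 0.00014). *Iigp1*, which encodes an immunity-related GTPase, was at 68.5, 105 and 115.7 RPKM in WT and 32.0, 15.0 and 29.0 RPKM in KI, a log2 fold change of -2.00 ± 0.39 (adjusted p = 0.000344). *Igtp*, another GTPase of that family and the most abundant member, was at 462, 426 and 498 RPKM in WT and 290, 215 and 246 RPKM in KI. It fell by 0.95 on the log2 scale (adjusted p = 0.000228), again with separate groups. *Ifit1*, whose protein binds viral RNA, was at 6.49, 17.6 and 16.5 RPKM in WT and 5.66, 3.01 and 3.45 RPKM in KI. Its groups were close at one end, since replicate 1 of WT was near replicate 1 of KI, and its log2 fold change was -1.81 ± 0.38 (adjusted p = 0.000771). *Ifit3* and *Oasl2* had the same pattern of libraries, at log2 fold changes of -1.87 and -2.15 (adjusted p = 0.000611 and 0.000587). *Irf9*, the subunit that binds DNA at the ISRE, marked the other end of the list. With a log2 fold change of -0.07 (adjusted p = 0.716), it was at 38.3, 38.4 and 42.6 RPKM in WT and 43.5, 36.8 and 39.1 RPKM in KI, with overlapping groups. *Samhd1*, which encodes an antiviral nucleotide hydrolase, *Mov10*, an antiviral RNA helicase, and *Parp12*, an ADP-ribosyltransferase, were among the 10 smallest adjusted p of the comparison. Their log2 fold changes were -0.97, -1.10 and -1.33 (adjusted p = 9.64e-08, 1.02e-08 and 4e-08).

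Promoter windows from RefSeq (GRCm38.p6) matched 28 of the 40 interferon-stimulated genes. A match to the ISRE core (GAAA, any 2 bases, GAAA, on either strand) lay in 64.3% of these windows and a GAS motif in 35.7%. Over all genes tested with a window these shares were 3.8% and 8.51%, and they were 3.44% and 8.3% over all 32851 windows. The letters of the motifs can overlap, which happened in 24 windows. The sequences below are the 200 bases before the annotated start of members of the list, 5′ to 3′ on the plus strand with the gene, with GAS and ISRE matches in capitals. They show both motifs side by side in *Igtp* (chr11:58199356-58199555), the most abundant member, with the GAS motif starting 45 bases and the ISRE match 34 bases before the start. In *Gbp2* (chr3:142620463-142620662) an ISRE match on the opposite strand starts 59 bases before the start, and in *Irf1* (chr11:53769814-53770013), which encodes a transcription factor induced by IFN-γ, a GAS motif starts 90 bases before it. A match is a description of these letters and not a measured binding site.
Igtp: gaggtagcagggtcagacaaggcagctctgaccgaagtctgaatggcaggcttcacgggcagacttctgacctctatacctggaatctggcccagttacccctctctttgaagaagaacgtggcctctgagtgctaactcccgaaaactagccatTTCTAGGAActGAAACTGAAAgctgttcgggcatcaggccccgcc
Gbp2: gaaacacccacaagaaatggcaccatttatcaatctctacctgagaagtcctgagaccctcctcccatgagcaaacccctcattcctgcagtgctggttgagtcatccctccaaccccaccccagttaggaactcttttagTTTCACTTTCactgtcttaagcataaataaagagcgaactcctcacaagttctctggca
Irf1: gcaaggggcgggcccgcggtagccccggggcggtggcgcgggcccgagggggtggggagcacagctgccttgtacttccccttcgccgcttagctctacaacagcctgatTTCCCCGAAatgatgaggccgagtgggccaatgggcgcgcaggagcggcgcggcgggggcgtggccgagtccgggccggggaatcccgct

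Transcription factors of effector and memory T cells mostly did not pass. Of 26 members, 1 was called lower, 2 passed lower and 6 passed higher, against 1.24%, 9.01% and 9.49% of all genes, so the share in the lower direction was near that of all genes. In the fit with all 48 libraries 1 passed lower and 2 passed higher. *Eomes*, which encodes a T-box factor of effector and memory CD8+ T cells, was at 33.9, 46.1 and 49.1 RPKM in WT and 18.9, 17.8 and 16.5 RPKM in KI. The groups were far apart relative to their spread, at a log2 fold change of -1.35 ± 0.19 (adjusted p = 5.23e-06). *Tcf7*, which encodes TCF-1, a factor of naive and memory T cells and the most abundant member, was at 248, 230 and 246 RPKM in WT and 329, 362 and 335 RPKM in KI. It rose by 0.44 ± 0.072 on the log2 scale (adjusted p = 5.37e-05, but 0.395 with all 48 libraries), and *Bcl6*, a repressor that opposes effector differentiation, rose by 0.95 (adjusted p = 0.000264). Leaving out 1 library gave 0.71 to 1.09 for *Bcl6*, lowest without replicate 3 of WT, the library with the lowest summed B cell markers. The part of other cell types in this difference was not tested. Among 26 AP-1, EGR and NR4A genes, 3 were called lower, led by *Jun* at 20.2, 25.1 and 32.7 RPKM in WT and 10.2, 7.82 and 8.27 RPKM in KI. Its log2 fold change was -1.63 ± 0.20 (adjusted p = 6.99e-07), whereas *Jund*, the most abundant of that list, had overlapping groups and a log2 fold change of 0.05. *Myc*, which encodes a growth-promoting factor induced by IL-2, was at 98.05, 94.5 and 103 RPKM in WT and 75.2, 91.8 and 88.3 RPKM in KI. Its KI values were all lower, but the log2 fold change of -0.28 ± 0.17 had an adjusted p of 0.297. It passed with only the 6 libraries compared (adjusted p = 0.0327). *Mycn*, a far less abundant paralog at 0.609, 0.943 and 0.696 RPKM in WT and 0.269, 0.283 and 0.115 RPKM in KI, was called lower at a log2 fold change of -1.81 (adjusted p = 0.000557, but 0.229 with all 48 libraries).

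Most members of the replication, mitosis, cyclin and CDK, and E2F lists passed lower, mostly by less than 2-fold, whereas most of the CDK inhibitors did not pass. Of 50 DNA replication genes 36 passed lower, of 38 mitosis genes 34, of 18 cyclins and CDKs 10 and of 10 E2F and DP genes 6, while 2 of these genes, both in the list of cyclins and CDKs, passed higher. Of 12 CDK inhibitors and pocket proteins, which restrain the cycle, 2 passed lower, 3 passed higher and 1 was called higher, with a median of 0.09. Of all genes 9.01% passed lower and 9.49% higher. The median log2 fold changes of the first 4 lists were -0.53, -0.78, -0.53 and -0.51. The called counts were small, with 1 replication gene, 4 mitosis genes and 2 of the cyclins and CDKs called lower, against 1.24% of all genes, and the 4 mitosis calls ranged from 0 without replicate 2 of WT to 12 without replicate 1 of KI. With all 48 libraries 25 replication genes, 20 mitosis genes, 7 cyclins and CDKs and 4 E2F and DP genes passed lower, and *E2f1*, *Mcm2*, *Mcm5*, *Mcm7*, *Pcna*, *Cdk4* and *Bub1*, described next, did not pass (adjusted p = 0.115, 0.195, 0.392, 0.0695, 0.0735, 0.0742 and 0.0855).

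*Cdk6*, which encodes a kinase of early G1 phase, was at 31.9, 35.3 and 30.3 RPKM in WT and at 12.7, 13.7 and 14.8 RPKM in KI. Its replicates were tight, and the log2 fold change was -1.31 ± 0.11 (adjusted p = 1.12e-10). *Ccne2*, which encodes cyclin E2 of the G1 to S transition, was at 3.88, 6.82 and 5.07 RPKM in WT and 2.47, 2.08 and 2.30 RPKM in KI, a log2 fold change of -1.27 ± 0.21 (adjusted p = 4.87e-05). *Cdk4*, the relative of *Cdk6*, was at 114.6, 111.9 and 118.97 RPKM in WT and 95.2, 97.4 and 92.1 RPKM in KI. It fell by 0.34 (log2, adjusted p = 0.0103), and the kinase gene *Cdk2* had a log2 fold change of -0.06 (adjusted p = 0.754). *Ccnd2*, which encodes cyclin D2 and was the most abundant cyclin gene, was at 130, 133.6 and 137.3 RPKM in WT and 119.1, 125.9 and 128.02 RPKM in KI (adjusted p = 0.226, but 0.046 with only the 6 libraries compared). Cyclin D1, encoded by *Ccnd1*, was called in the other direction, at 1.08, 1.84 and 0.661 RPKM in WT and 3.74, 2.44 and 2.60 RPKM in KI. Replicate 3 of WT was its lowest library, and without it the log2 fold change of 1.23 came to 0.90 (adjusted p = 0.0495). That library also had the lowest summed B cell markers, and replicate 1 of KI had the highest level of both. The part of other cell types in the *Ccnd1* difference was not tested.

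*E2f1*, which encodes an activator of S phase genes, was at 12.8, 15.3 and 13.8 RPKM in WT and 9.28, 8.86 and 7.81 RPKM in KI. It fell by 0.76 ± 0.16 on the log2 scale (adjusted p = 0.000741), as did *E2f3* by 0.72 (adjusted p = 2.03e-05) and *Tfdp1*, which encodes their dimer partner DP1, by 0.71 (adjusted p = 3.08e-05). *E2f2* had a log2 fold change of -0.27 (adjusted p = 0.294). The 6 genes of the replicative helicase, *Mcm2* to *Mcm7*, all passed lower. Their log2 fold changes lay between -0.60 and -0.47. *Mcm5*, for example, was at 65.9, 70.9 and 66.2 RPKM in WT and 48.4, 48.6 and 43.5 RPKM in KI, so that the groups were separate at a small difference. *Pcna*, the replication clamp and most abundant of the list, fell by 0.52 (adjusted p = 0.000131). *Rrm2*, a subunit of ribonucleotide reductase, was the one called member, at a log2 fold change of -1.02 ± 0.22, and came to -0.92 without replicate 3 of KI and -0.89 without replicate 2 of WT.

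Of the mitosis genes, *Bub1*, a checkpoint kinase, was at 3.58, 5.29 and 3.38 RPKM in WT and 2.51, 1.65 and 1.94 RPKM in KI, with separate groups. Its log2 fold change was -1.08 ± 0.23 (adjusted p = 0.000904), and it fell below 2-fold without replicate 2 of WT, at -0.84, or without replicate 2 of KI, at -0.95. *Cdk1*, the kinase that drives entry into mitosis, fell by 0.94 ± 0.24 (adjusted p = 0.00491). *Cenpa*, which encodes the centromeric histone, was the highest of the list at a log2 fold change of 0.10 (adjusted p = 0.729). The promoter window of 31 of the 38 mitosis genes held the CHR element (TTTGAA, either strand), a sequence of cell cycle promoters, in 71.0%, against 14.8% of all genes tested with a window. An E2F motif (TTTCCCGC or TTTCGCGC, either strand) lay in 31.7% of the 41 replication genes with a window, against 2.76%. The 200 bases before the start of *Ube2c* (chr2:164769729-164769928, plus strand), which encodes a ubiquitin-conjugating enzyme of mitotic exit, are shown as an example of the CHR element, in capitals 29 bases before the start.
Ube2c: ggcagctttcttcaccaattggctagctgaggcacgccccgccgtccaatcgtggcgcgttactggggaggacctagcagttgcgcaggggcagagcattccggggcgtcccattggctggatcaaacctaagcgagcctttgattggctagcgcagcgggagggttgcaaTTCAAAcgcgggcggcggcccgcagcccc

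**Figure D3:**
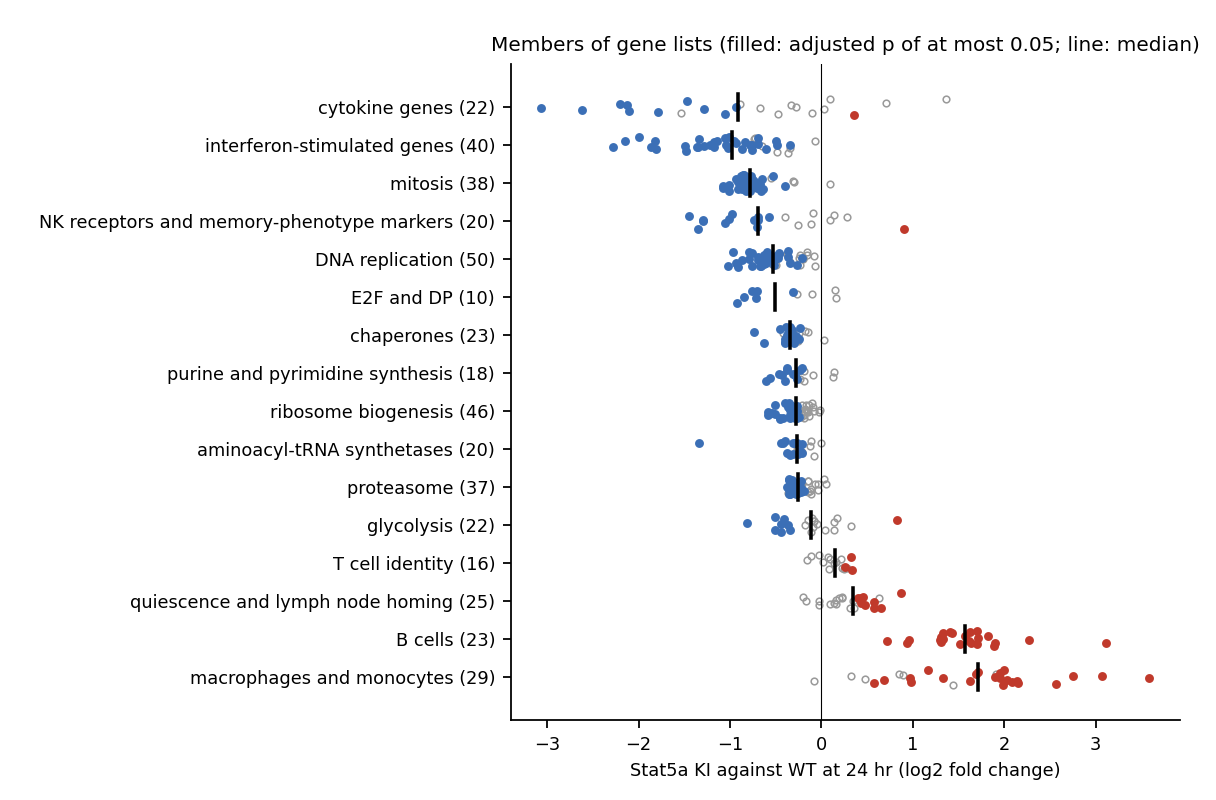
Each point is a gene, placed by its log2 fold change of *Stat5a* KI against WT at 24 hr (x axis), for 16 gene lists with the number of genes tested in parentheses. Filled points passed (blue lower, red higher), open points did not, and black lines are medians. Mitosis and DNA replication genes form compact groups between -1.08 and 0.10 and between -1.02 and -0.07, whereas cytokine genes spread from -3.07 to 1.36.

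Several lists of biosynthetic genes had more than 9.01% of their members, the share over all genes, passing lower, by smaller amounts. The passed counts in the lower direction were 26 of 46 ribosome biogenesis genes, 21 of 37 proteasome genes, 17 of 23 chaperones, 14 of 20 aminoacyl-tRNA synthetases and 12 of 18 purine and pyrimidine synthesis genes, with 0 passing higher, against 9.49% of all genes. Their median log2 fold changes were -0.27, -0.26, -0.35, -0.27 and -0.28. The same lists had 10, 4, 5, 3 and 4 genes passing lower with all 48 libraries. *Npm1*, which encodes the nucleolar protein nucleophosmin, was at 758, 778 and 816 RPKM in WT and at 550, 539 and 556 RPKM in KI. The replicates were close to each other, and the log2 fold change was -0.58 ± 0.093. Its adjusted p was 3.62e-05, and 0.000758 with only the 6 libraries compared. *Hsp90aa1*, an inducible chaperone, was at 202, 234 and 213 RPKM in WT and 140, 130.6 and 136.1 RPKM in KI (log2 fold change -0.74, adjusted p = 3.92e-05). *Adss*, an enzyme of AMP synthesis, fell by 0.60 (adjusted p = 2.03e-05). *Wars*, the tryptophanyl-tRNA synthetase that interferon also induces, was the one synthetase called lower, at 99.2, 108.1 and 138.6 RPKM in WT and 56.0, 41.1 and 46.3 RPKM in KI. Its log2 fold change of -1.34 ± 0.13 (adjusted p = 1.02e-08) was the lowest of the list, and *Qars*, the glutaminyl-tRNA synthetase, was at -0.01. Of 22 glycolysis genes 8 passed lower and 1 higher (2 and 0 with all 48 libraries), with *Hk2*, the inducible hexokinase, at a log2 fold change of -0.81 (adjusted p = 0.000596, but 0.0692 with all 48 libraries). Of 24 amino acid transporters and one-carbon enzymes 11 passed lower and 1 higher, and of 28 sterol and fatty acid synthesis genes tested 1 passed lower and 3 higher, the latter near the share of all genes. *Eif4e3*, a cap-binding translation factor outside these lists and among the smallest adjusted p, was at 14.8, 16.2 and 16.9 RPKM in WT and 7.17, 6.34 and 6.32 RPKM in KI (log2 fold change -1.34, adjusted p = 2.74e-11).

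NK receptors and markers of memory-phenotype CD8+ T cells were lower in KI, at a median log2 fold change of -0.70, with 6 of 20 called lower, 12 passed lower and 1 passed higher, against 1.24%, 9.01% and 9.49% of all genes. In the fit with all 48 libraries 7 passed lower. Of 17 markers of NK cells and innate lymphocytes 3 were called lower and 1 higher, with a median of -0.10. Their sum overlapped between the groups, at a ratio of KI to WT means of 0.843, with *Eomes* as the most abundant gene. Their part in the differences of the NK receptor genes was not tested. *Klrc1*, which encodes the inhibitory receptor NKG2A, was at 5.24, 9.14 and 11.6 RPKM in WT and 3.86, 3.07 and 3.05 RPKM in KI. The groups did not overlap, at a log2 fold change of -1.45 ± 0.31 (adjusted p = 0.000934). *Klre1* and *Klrc2*, receptors encoded in the same gene complex, were called lower at -1.30 and -1.29. The gene that passed higher was *Cd7*, which encodes a T and NK cell surface protein, at 42.5, 33.1 and 32.0 RPKM in WT and 79.7, 68.6 and 62.8 RPKM in KI (log2 fold change 0.91 ± 0.15, adjusted p = 7.97e-05). The median of this list was -0.56 at 0 hr.

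Genes called higher in KI included most of the markers of B cells and of macrophages that were tested. Of 25 B cell markers 23 were tested, of which 20 were called higher and 23 passed higher. Of 30 macrophage and monocyte markers 29 were tested, of which 18 were called higher and 22 passed, against 3.21% called higher and 9.49% passed higher of all genes. Of the 499 genes called higher, 48 were in a list of another cell type. The median log2 fold changes were 1.57 and 1.71. *Cd74*, the invariant chain of MHC class II and the most abundant B cell marker, was at 169, 184 and 110 RPKM in WT and 471, 352 and 374 RPKM in KI. *Vpreb3*, a gene of B lineage cells, was at 0.303, 0.441 and 0.111 RPKM in WT and at 2.35, 2.87 and 2.47 RPKM in KI. Both were separate between groups, at log2 fold changes of 1.30 ± 0.21 and 3.11 ± 0.48 (adjusted p = 4.14e-05 and 2.56e-05). *Lyz2*, which encodes lysozyme of myeloid cells, was at 8.24, 6.70 and 2.44 RPKM in WT and 38.3, 20.7 and 21.3 RPKM in KI, a log2 fold change of 2.15 ± 0.43 (adjusted p = 0.000471). *Cd5l*, a gene of tissue macrophages, was at 0.656, 0.447 and 0.123 RPKM in WT and 8.44, 1.45 and 0.829 RPKM in KI. Its value rested on replicate 1 of KI, without which its log2 fold change of 3.07 came to 1.45 (adjusted p = 0.0797).

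Summed over the list, B cell markers came to 531, 541 and 291 RPKM in WT and 1406, 1051 and 1166 RPKM in KI, a ratio of means of 2.66. Macrophage and monocyte markers came to 236, 227 and 193 RPKM in WT and 507, 327 and 310.2 RPKM in KI, a ratio of 1.74, with *Ctsd*, a lysosomal protease gene that T cells also express, as the most abundant gene. Without replicate 1 of KI 20 B cell markers and 4 macrophage markers were called higher, without replicate 3 of WT 18 and 9, and with all 48 libraries 19 and 12. Of 12 dendritic cell markers 3 were called higher, 7 passed higher and 1, *Bst2*, passed lower, against 3.21%, 9.49% and 9.01% of all genes, with a median of 0.84. Their sum overlapped between the groups, at a ratio of 0.821, and was carried by *Bst2*, itself interferon-stimulated, which had a log2 fold change of -0.76 and did not pass with all 48 libraries (adjusted p = 0.0607) or with limma (0.0548). Of 5 plasma cell markers 3 were called higher, against 3.21% of all genes, with a median of 1.85, and the sum was 30.5, 33.5 and 29.5 RPKM in WT and 68.8, 34.1 and 35.4 RPKM in KI, so replicate 1 of KI stood apart. The most abundant of them, *Xbp1*, which other cells also express, had a log2 fold change of -0.20 (adjusted p = 0.42, but 0.00435 without replicate 1 of KI at every time, a setting chosen after seeing the data). Of 5 gamma delta T cell markers 1 was called higher and 1 lower, against 3.21% and 1.24% of all genes, and the mean sum was 3.79 RPKM in WT and 9.66 RPKM in KI, a ratio of 2.55, most of it *Blk*, which B cells also express. T cell identity genes came to 2908, 2600.4 and 2725 RPKM in WT and 3025, 3231 and 3024 RPKM in KI. Neutrophil and mast cell markers were near 0, at 2.13 to 2.92 RPKM in sum with *Elane* at 0 in all 6 libraries and *Cxcr2* as the most abundant gene. In bulk RNA, more cells of a type and more RNA per cell cannot be told apart. The part of these markers in the other genes called higher was not tested.

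**Figure D4:**
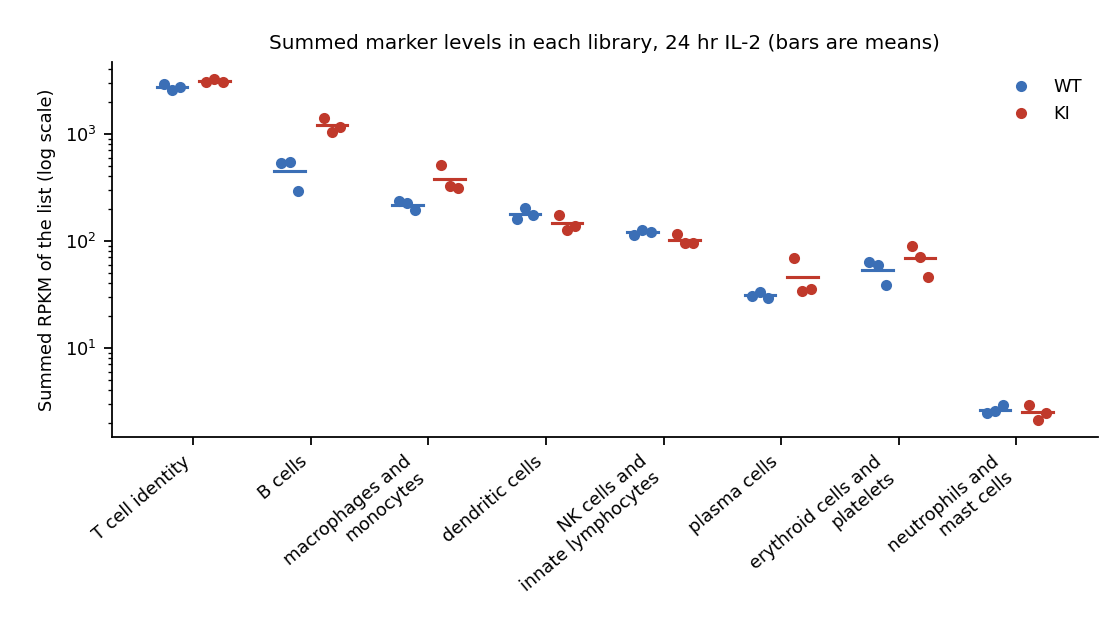
Summed RPKM of 8 marker lists in each library at 24 hr, on a log axis, with WT in blue, *Stat5a* KI in red and short bars for group means. All KI points of the B cell list (1051 to 1406) and of the macrophage and monocyte list (310.2 to 507) lie above all WT points. The dendritic cell sum overlaps between the groups and is mostly *Bst2*.

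Other genes higher in KI were outside the B cell and macrophage lists. *Itgae*, which encodes the integrin chain CD103 of tissue-resident and naive CD8+ T cells, was at 9.37, 6.42 and 5.27 RPKM in WT and at 21.9, 19.8 and 23.2 RPKM in KI. The groups were well apart, at a log2 fold change of 1.56 ± 0.26 (adjusted p = 6.12e-05). *Sh2b2*, which encodes an adaptor of tyrosine kinase signaling, was at 0.228, 0.360 and 0.212 RPKM in WT and 1.03, 0.910 and 1.12 RPKM in KI, a log2 fold change of 1.87 ± 0.20 (adjusted p = 7.09e-08). *Fam101b*, an actin-organizing gene also named *Rflnb*, was at 14.4, 12.8 and 14.1 RPKM in WT and 28.6, 27.3 and 26.7 RPKM in KI. It rose by 0.94 ± 0.092 (adjusted p = 1.02e-08), just under 2-fold and with tight replicates. *Il1r2*, a decoy receptor of IL-1, was called higher at 1.89 (adjusted p = 9.19e-05). *Ccr6*, a chemokine receptor that B cells also express, was at 0.761, 0.724 and 0.248 RPKM in WT and 3.06, 2.47 and 2.73 RPKM in KI (log2 fold change 2.20, adjusted p = 5.38e-06). *Cd4*, which marks other T cells and some myeloid cells, was at 3.12, 4.14 and 1.70 RPKM in WT and 9.15, 8.82 and 9.34 RPKM in KI (log2 fold change 1.54, adjusted p = 9.31e-05). It is one of 12 markers of CD4+ and regulatory T cells, of which 2 were called higher, 3 passed higher and 1, *Il2ra*, was called lower, against 3.21%, 9.49% and 1.24% of all genes. Their median was 0.13, and their sum overlapped between the groups, at a ratio of KI to WT means of 0.969. *Il2ra* was the most abundant gene over the 6 libraries together. In each KI library, however, it was below *Cd4*, at 8.41, 6.38 and 7.01 RPKM. The sum includes *Il2ra*, which was called lower, so it does not show how the other markers differed in total. Both *Ccr6* and *Cd4* had their lowest level in replicate 3 of WT, as the B cell markers did.

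Of 25 genes of quiescence and lymph node homing, 10 passed higher, 0 passed lower and 0 were called, against 9.49% passed higher, 9.01% passed lower and 3.21% called higher of all genes. The median log2 fold change was 0.35, and 2 passed higher with all 48 libraries. *Ccr9*, a gut-homing receptor, was at 9.39, 9.15 and 7.80 RPKM in WT and 16.5, 16.2 and 17.7 RPKM in KI (log2 fold change 0.87 ± 0.14, adjusted p = 3.08e-05). Of 16 T cell identity genes 3 passed higher (0 with all 48 libraries), with *Cd3g*, a chain of the T cell receptor complex, at the top (log2 fold change 0.34, adjusted p = 0.00126, but 0.378 with all 48 libraries).

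The KI difference at 24 hr was compared with that at 0 and 48 hr in the same line. The 4 hr libraries, of which a KI library was left out, were not compared here. At 0 hr 0.18% of the 15566 genes were called lower and 0.861% higher, and at 48 hr 379 (2.43%) and 988 (6.35%). Differences between times were tested in the same fit. From 0 to 24 hr the KI effect became more negative for 204 genes (1.31%) and more positive for 43 (0.276%). From 24 to 48 hr it became more negative for 55 genes (0.353%) and more positive for 76 (0.488%). Together the first difference was called for 1.59% of genes, which came to 0.684% without replicate 1 of KI at 0 hr, 0.958% and 0.951% without replicates 2 and 3 of KI at 24 hr and 0.925% without replicate 2 of WT at 24 hr. The second was called for 0.842%, which came to 0.527% without replicate 2 of KI at 24 hr, 0.534% without replicate 3 of KI at 48 hr and 0.45% without replicate 2 of WT at 48 hr. The comparisons at different times used different libraries, but *Baiap2l1* marked the same replicate numbers of KI at each time. Replicate 3 of WT and replicate 1 of KI also had the lowest and highest summed B cell markers at 0, 24 and 48 hr. Cells of the same mice may therefore have been used. The fit treated libraries of different times as independent. The replicate block was within a time only, so a link across times was not modeled.

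Among the 3 times compared, interferon-stimulated genes had their lowest median at 24 hr. Their median log2 fold change was -0.01 at 0 hr, -0.98 at 24 hr and -0.17 at 48 hr. In the test of the difference from 24 to 48 hr, 17 of 40 passed in the positive direction and 11 were called, against 3.2% and 0.488% of all genes, and 0 passed in the negative direction. These counts were 2 and 0 with all 48 libraries. Leaving out 1 library gave 9 to 19 passed and 3 to 13 called, with 3 called without replicate 2 of KI at 24 hr, 4 without replicate 3 of WT at 24 hr and 6 without replicate 3 of KI or replicate 2 of WT at 48 hr. The difference of log2 fold changes was 1.499 for *Gbp2* (adjusted p = 0.0303), 1.09 for *Igtp* (adjusted p = 0.00534), 1.91 for *Iigp1* (adjusted p = 0.0205) and 1.14 for *Samhd1* (adjusted p = 3.15e-05). Of these genes *Samhd1* passed with all 48 libraries (adjusted p = 0.0077), whereas *Gbp2*, *Igtp* and *Iigp1* did not (0.277, 0.284 and 0.146), and *Gbp2* and *Iigp1* did not pass in several of the fits without 1 library. From 0 to 24 hr, 11 of the 40 passed in the negative direction, against 3.3% of all genes, which came to 3 with all 48 libraries, 28 without the 4 hr libraries and 5 to 22 leaving out 1 library, with 5 without replicate 2 of KI at 24 hr and 22 without replicate 2 of WT at 0 hr.

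Ribosome biogenesis genes followed another course, with medians of -0.09, -0.27 and -0.72 at 0, 24 and 48 hr. At 48 hr 45 of 46 passed lower, against 22.8% of all genes, and the step from 24 to 48 hr passed in the negative direction for 35 of 46, against 4.75%. That count came to 2 with all 48 libraries and to 21 to 36 leaving out 1 library, with 21 and 23 without replicates 2 and 3 of KI at 24 hr and 22 without replicate 2 of WT at 48 hr. DNA replication genes had medians of 0.05, -0.53 and -0.67, and mitosis genes of 0.31, -0.78 and -0.72. From 0 to 24 hr 29 of 50 replication genes and 31 of 38 mitosis genes passed in the negative direction, against 3.3% of all genes. Only 3 and 7 passed with all 48 libraries. Without replicate 1 of KI at 0 hr 12 and 4 passed, without replicate 1 of WT at 0 hr 18 and 18, without replicate 3 of KI at 24 hr 15 and 12 and without replicate 2 of WT at 24 hr 14 and 9, and without replicate 2 of KI at 24 hr 14 mitosis genes passed. Genes of quiescence and homing had medians of -0.06, 0.35 and 0.70, and 21 of 25 passed higher at 48 hr, against 21.5% of all genes. B cell markers were already higher at 0 hr, with a median of 1.07 and 9 of 23 called higher, against 0.861% of all genes. Their medians were 1.57 at 24 hr and 1.93 at 48 hr. No B cell marker passed in the test from 24 to 48 hr.

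**Figure D5:**
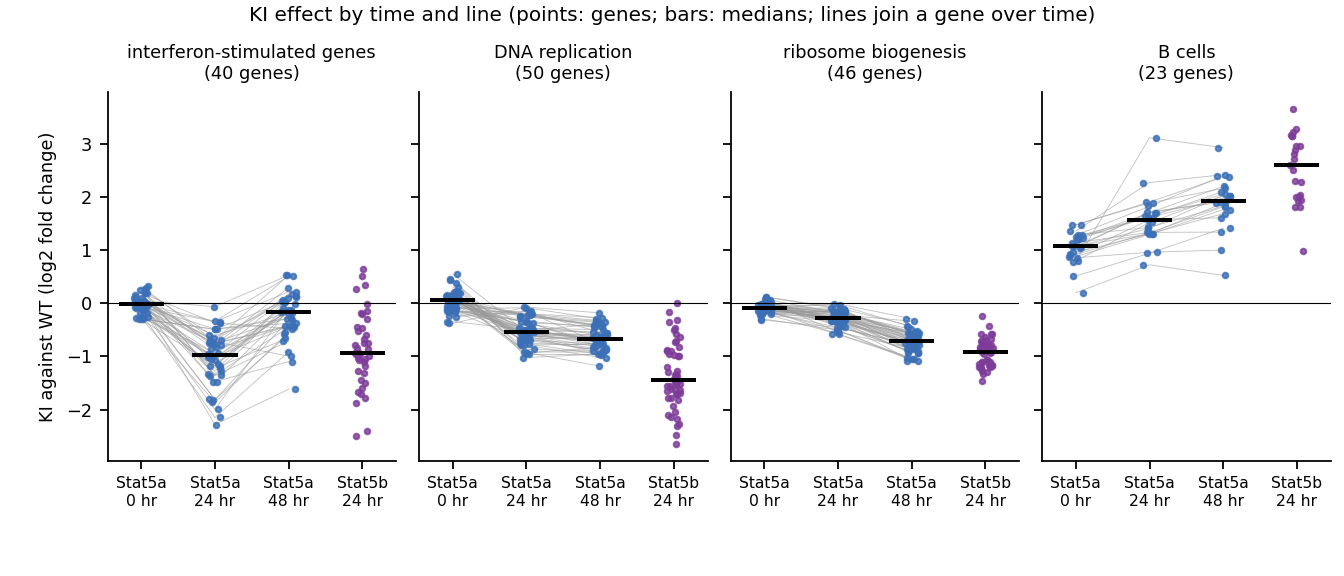
Log2 fold changes of KI against WT for 4 gene lists in the *Stat5a* line at 0, 24 and 48 hr (blue, grey lines join a gene) and in the *Stat5b* line at 24 hr (purple). Black bars are medians. Interferon-stimulated genes are lowest at 24 hr within the *Stat5a* line (medians -0.01, -0.98 and -0.17), ribosome biogenesis genes go further down at 48 hr, and DNA replication genes are lowest in the *Stat5b* line (median -1.45).

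At the same time point, *Stat5b* KI cells against their own WT littermates had 898 genes called lower (5.77%) and 1698 called higher (10.9%). Of the 193 genes called lower in *Stat5a* KI, 78.8% were also called lower in *Stat5b* KI, which is 16.9% of the genes called lower there. Of the 499 called higher, 463 were shared, 92.8% of the first and 27.3% of the second. The KI effect was tested for a difference between the lines, where 197 genes (1.27%) were called in the direction of a less negative or more positive effect in *Stat5a* KI and 216 (1.39%) in the other direction. Together these were 2.65% of genes, and 1.76% without replicate 2 of *Stat5a* KI.

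For DNA replication genes the median log2 fold change was -0.53 in *Stat5a* KI and -1.45 in *Stat5b* KI, and the difference passed in the direction of a smaller fall in *Stat5a* KI for 43 of 50 genes, against 11.4% of all genes. Ribosome biogenesis genes had medians of -0.27 and -0.91, and the difference passed that way for 40 of 46. These counts were 21 and 17 with all 48 libraries. Interferon-stimulated genes had medians of -0.98 and -0.94, and the difference passed for 0 of 40 in either direction, though 5 passed without the 4 hr libraries (3 lower and 2 higher). *Cdk6* fell less in *Stat5a* KI, with a difference of log2 fold changes of 1.09 ± 0.15 (adjusted p = 4.53e-06), and so did *Lta* (1.48, adjusted p = 2.15e-07), *Gzmb* (1.94, adjusted p = 0.00147), *Tnf* (1.44, adjusted p = 5.71e-05) and *Cish* (1.39, adjusted p = 0.00113). *Myc*, which did not pass within *Stat5a* KI, differed between the lines by 1.10 (adjusted p = 0.00177, but 0.0557 with all 48 libraries). For *Ifng* the difference was 0.83 (adjusted p = 0.27). B cell markers had medians of 1.57 and 2.59 in the 2 lines, and the difference between the lines passed for 4 of 23 and was called for 2, against 1.39% of all genes called in that direction. Of 19 erythroid and platelet markers 1 was called higher and 1 lower in *Stat5a* KI, against 3.21% and 1.24% of all genes, with a median of 0.34. In *Stat5b* KI 11 were called higher and 1 lower, against 10.9% and 5.77% of all genes, with a median of 3.01. The difference was called as lower in the *Stat5a* effect for 9 of these markers, against 1.39% of all genes. Their sum was 45.8 to 90.6 RPKM in *Stat5a* KI against 38.7 to 64.0 RPKM in its WT, and 282 to 651 RPKM in *Stat5b* KI against 30.2 to 55.8 RPKM in its WT, with *Hbb-b1*, a globin gene, as the most abundant. The part of these markers in the differences between the lines was not tested.

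Genes near the edited site were examined separately. Within 2 Mb of *Stat5a* 90 genes with known coordinates were tested, of which 0 were called lower and 3 higher (3.33%), namely *Hap1*, *Jup* and *Adam11*. *Hap1* and *Adam11* did not pass without replicate 1 of KI, at adjusted p of 0.279 and 0.0893, or without replicate 3 of WT, at 0.192 and 0.0567, and *Hap1* also did not pass without replicate 2 of KI or replicate 1 or 2 of WT, at adjusted p between 0.0695 and 0.075. *Jup*, called at a log2 fold change of 1.02, came to 0.83 without replicate 1 of KI or replicate 3 of WT. On the rest of chromosome 11 the share called was 5.4% of 1112 genes, and over all genes tested it was 4.45%. A further 71 tested genes of chromosome 11 had no coordinates in the annotation used and are in neither set, so some may lie near *Stat5a*. The median log2 fold changes were 0.059 near *Stat5a* and 0.061 on the rest of the chromosome.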

How the data were processed

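RNA-seq libraries were prepared from CD8+ T cells and sequenced as 50 bp reads. The authors deposited, per transcript, the number of reads (count) and the RPKM, made from reads mapped uniquely to mm10 with TopHat2 2.0.11 and counted over RefSeq exons. The submitters' processing notes also name edgeR, with which the authors tested for differential expression, and Bowtie2 2.2.6, SAMtools 0.1.8 and bedtools 2.25.0, whose part in these tables is not given in the sources used here. The deposited RPKM values were used for levels and the deposited counts for tests. Of 31682 transcripts, the longest of each of 23992 symbols was kept. Genes passing filterByExpr (minimum count 10) were normalized by TMM and fitted with edgeR 4.0.16 (R 4.3.3, limma 3.58.1, DESeq2 1.42.0), with 1 mean per group over 47 libraries, since the third KI library of the *Stat5a* line at 4 hr held 1028515 reads and was left out. Quasi-likelihood p-values were adjusted by the Benjamini-Hochberg method over all genes. SE is the absolute log2 fold change divided by the square root of F. Groups were said not to overlap from RPKM (from TMM-scaled counts in the rule for named genes). Replicate pairs within a group differed beyond sampling noise, with a chi-square over its degrees of freedom between 9.24 and 20.5. On simulated counts of 15451 genes for the comparison at 24 hr, edgeR recovered 91% of genes changed 2-fold and 100% of those changed 4-fold. The counts were drawn independently with the spread estimated in the fit, and recovery was judged by adjusted p alone. Only genes above a minimum expected read number were changed, so these rates do not cover genes of low level.

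Gene lists and members were chosen with earlier results of these data known. The genes named were *Stat5a* and *Stat5b*, the 10 largest falls and rises among called genes with non-overlapping libraries and a mean of at least 1 RPKM, the 10 smallest adjusted p, genes the study names, up to 6 called members per list and direction, the most abundant member and the ends of each list, and genes within 2 Mb of *Stat5a*; not all of them are described, and some items are not reported here. Marker checks and genes shown only by sequence lie outside this rule. Settings tried as alternatives were the normalization, DESeq2, limma on log2(RPKM + 1), filters, transcript, libraries in the fit, a replicate block and leaving out each library.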

Additional observations from a re-analysis of the deposited data

Results flagged for a closer look

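The KI effect at 24 hr was tested against that of the *Stat5b* line and of other times, and differences were called for several of the genes described. Each value below is a difference of log2 fold changes. Between the lines, 216 genes were called as lower and 197 as higher in the *Stat5a* effect. The effect was less negative in *Stat5a* KI for cytokine and granzyme genes, at 1.26 for *Ccl3*, 1.48 for *Lta*, 1.44 for *Tnf* and 1.94 for *Gzmb*. The same held for cell cycle genes, at 1.15 for *Ccne2*, 1.09 for *Cdk6*, 1.29 for *E2f1*, 1.02 for *Mcm2*, 1.09 for *Mcm5*, 1.09 for *Mcm7* and 1.12 for *Rrm2*, and for *Cish* (1.39), *Hk2* (1.02), *Myc* (1.10) and *Mycn* (2.79). It was less positive for *Il9r* (-2.00), *Adam11* (-1.39) and the erythroid gene *Hbb-b1* (-3.41). Of these 18 differences 9 did not pass with all 48 libraries (*Adam11*, *Ccl3*, *E2f1*, *Hk2*, *Mcm2*, *Mcm5*, *Myc*, *Mycn* and *Rrm2*). That of *Ccl3* also did not pass with DESeq2, DESeq2 size factors, the RPKM filter, the transcript of highest count, without KI replicate 1 of the line at every time or in 9 of the 12 fits without 1 library, that of *Adam11* in 8 of those 12, and that of *Rrm2* without replicate 1 of *Stat5b* KI.

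From 0 to 24 hr, 204 genes were called with a more negative effect and 43 with a more positive one. Cytokine, cytokine receptor and granzyme genes moved by -2.52 for *Ccl3*, -2.66 for *Ifng*, -2.97 for *Lif*, -2.22 for *Lta*, -1.49 for *Tnf*, -1.64 for *Gzmb* and -2.03 for *Il12rb2*, and the feedback inhibitor gene *Socs2* by -1.17. Cell cycle genes moved by -1.59 for *Bub1*, -1.06 for *Ccne2*, -1.36 for *Cdk1*, -1.51 for *Cdk6* and -1.48 for *Rrm2*. Interferon-stimulated genes moved by -1.83 for *Gbp2*, -1.78 for *Ifit1*, -1.15 for *Mov10*, -1.34 for *Parp12*, -1.04 for *Samhd1* and -1.31 for *Wars*. Other negative differences were -1.52 for *Eif4e3*, -1.11 for *Hk2*, -1.85 for *Jun* and -2.06 for *Mycn*. Positive differences were 1.11 for *Fam101b*, 1.51 for *Il1r2*, 1.37 for *Itgae*, 1.18 for *Sh2b2* and 2.33 for *Vpreb3*. Of these 28 differences 16 did not pass with all 48 libraries, among them *Gbp2*, *Gzmb*, *Lif*, *Itgae* and *Vpreb3*. Leaving out 1 library ended 1 to 7 of the calls, with 7 lost without replicate 1 of KI at 0 hr or replicate 2 of WT at 24 hr, and *Gzmb*, *Ifit1*, *Ccne2*, *Cdk1* and *Socs2* were each lost in several of these fits.

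From 24 to 48 hr, 55 genes were called with a more negative effect and 76 with a more positive one. The differences were 1.499 for *Gbp2*, 1.09 for *Igtp*, 1.91 for *Iigp1*, 1.14 for *Samhd1* and 1.00 for *Wars*, and -1.04 for *Socs2*. With all 48 libraries 5 of these 6 did not pass, *Samhd1* being the exception. The difference of *Socs2* also did not pass without replicate 1 of KI or WT at 24 hr, replicate 3 of KI at 48 hr or replicate 2 or 3 of WT at 48 hr, and those of *Gbp2* and *Iigp1* did not pass in 7 and 4 of the 12 fits without 1 library.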

How the results depend on the processing

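Of 69 genes described that passed at 24 hr, 50 passed in the same direction under every alternative, and none of the 69 changed direction under any of them. With all 48 libraries 17 did not pass, at adjusted p of 0.406 for *Il2ra*, 0.243 for *Il2rb*, 0.395 for *Tcf7*, 0.49 for *Il16*, 0.378 for *Cd3g*, 0.392 for *Mcm5*, 0.195 for *Mcm2*, 0.115 for *E2f1*, 0.229 for *Mycn* and 0.0607 to 0.0989 for the other 8 (*Bst2*, *Bub1*, *Cdk4*, *Hap1*, *Hk2*, *Mcm7*, *Pcna* and *Socs2*). With limma 6 did not pass (*Bst2*, *Cdk4*, *Hap1*, *Il16*, *Il2rb* and *Mcm7*). The cause of the changes below was not tested. Shares are given as a percent of the genes tested in each setting. Genes called lower (1.24%) and higher (3.21%) came to 0.494% and 0.69% with limma on log2(RPKM + 1), and the latter to 2.66% with genes of at least 1 RPKM in 3 libraries, where fewer genes were tested, 2.05% with all 48 libraries, 2.49% with only the 6 libraries compared and, in a setting chosen after seeing the data, 1.65% without KI replicate 1 of the line at every time. Leaving out 1 library gave 0.848% to 1.69% lower and 1.74% to 3.42% higher. Differences between lines (2.65%) came to 0.961% with all 48 libraries, 4.78% without the 4 hr libraries and 1.76% to 3.47% leaving out 1 library. Differences from 0 to 24 hr (1.59%) came to 0.5% with all 48 libraries, 1.03% with the replicate block and 0.684% to 2.07% leaving out 1. Differences from 24 to 48 hr (0.842%) came to 0.0909% with all 48 libraries, 1.52% without the 4 hr libraries, 0.502% without WT replicate 3 at every time (also chosen after seeing the data) and 0.45% to 1.24% leaving out 1.

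At 24 hr, WT and KI libraries of the *Stat5a* line with the same replicate number did not deviate together (correlations of -0.15, -0.33 and -0.05). Libraries of different times were not compared in this way. The B cell marker sums and *Baiap2l1*, described above, did mark the same replicate numbers at different times. The replicate block, which was within a time only, gave 157 genes called lower and 454 higher. *Socs2* did not pass with the block (adjusted p = 0.071). Nor did the difference between lines for *Adam11*, the differences from 0 to 24 hr for *Ccne2*, *Gzmb*, *Ifit1*, *Socs2* and *Vpreb3* and that from 24 to 48 hr for *Socs2*. Among genes that did not pass, *Nkg7* came to -0.014 without the filter, -0.012 with all 48 libraries, -0.009 without the 4 hr libraries, -0.008 with the transcript of highest count, -0.021 without KI replicate 1 at every time and -0.010 to 0.049 leaving out 1 library. *Cdk2* came to 0.002 with limma and -0.154 to 0.005 leaving out 1, *Jund* to -0.048 to 0.125 leaving out 1, and *Qars* to 0.057 with limma, 0.028 without WT replicate 3 at every time and -0.058 to 0.010 leaving out 1. Of the genes called higher, 325 stayed under a mean of 1 RPKM in both groups, and so rest on fewer reads than more abundant genes of the same length.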
